A study of Homo sapiens with 16 samples.

Results

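The question addressed here is whether editing of TFE3 was followed by the same changes in RNA level in 2 human melanoma lines, and which genes moved the same way or in opposite ways. The SKMEL28 contrast was the mean of 2 double-knockout clones, clone 3 and clone 13 (genotype MITFKO, TFE3KO; DKO below), minus the MITFKO parent, called D2-MITFKO in the labels. The A375 contrast was the TFE3KO line minus wild-type A375, a line whose MITF gene had not been edited. The interaction is the first contrast minus the second. A gene was counted as changed the same way when both contrasts were called with 1 sign, and as changed in opposite ways when both were called with opposite signs. RNA-seq counts of 15 of the 16 libraries of the series entered 1 model: 3 MITFKO, 3 of DKO clone 3, 3 of DKO clone 13, 3 A375 wild type and 3 A375 TFE3KO. The single library of unedited SKMEL28 was not in the model.

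SKMEL28 and A375 are established melanoma lines with mutant BRAF. The culture medium was RPMI for SKMEL28 and DMEM for A375, renewed the day before harvest. TFE3 was edited by CRISPR-Cas9 in both. Replicates were separate flasks of 1 line or clone, so each p-value measures the spread between cultures, not between independently edited clones. Both DKO clones share the same MITFKO controls, while the SKMEL28 and A375 contrasts share no library. Cell line, medium, MITF genotype and the edited clone all differ between the 2 contrasts and cannot be told apart in the interaction. In bulk RNA, fewer cells of a state and less RNA per cell cannot be told apart either.

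TFE3, MITF, TFEB and TFEC form the MiT/TFE family of basic helix-loop-helix leucine zipper factors, which bind E-box sequences with the core CACGTG as dimers with themselves or each other. MITF drives the pigment programme of melanocytes. TFE3 and TFEB are known for lysosomal, autophagy and nutrient-response genes, and are held in the cytoplasm by mTORC1 acting through folliculin and the Rag GTPases on the lysosome. ATF4, a stress factor that raises amino acid synthesis and transport, and the MAPK, TGF-beta and YAP outputs were followed beside them, since they describe melanoma states.

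Assigned counts ran from 17320855 to 31269126 per library, and 15093 genes passed the count filter. Levels are given as CPM, read counts relative to library size scaled by TMM factors, with means ± SD over n = 3 cultures. The summed levels of marker lists, here and for the fibroblast list below, are CPM by library size alone, without TMM factors. Calls are edgeR quasi-likelihood F-tests with Benjamini-Hochberg adjusted p below 0.05 over all genes tested. Melanocyte lineage markers (SOX10, S100B, PMEL, MLANA, TYR, DCT and MITF) summed to between 5860 and 7590 CPM in the SKMEL28 libraries and between 554 and 908 CPM in A375, where TYR was at 0 in all 6 libraries. DCT was at 0 in wild-type A375, so A375 carried little of the pigment programme. The 11 keratinocyte markers summed to 32.6 to 39.6 CPM in SKMEL28 and 78.3 to 95.5 in A375, and the 12 leukocyte and endothelium markers to 160 to 269 and 40.7 to 46.5 CPM. DSG3 among the keratinocyte markers was at 0 in every group. Clone 13 replicate 2 stood apart from replicates 1 and 3 of its clone. The chi-square per gene against them was 22 and 23.4, against 3.2 to 7.15 for the other pairs of cultures. For some of the genes in which it was far from the other cultures, the change is also given without it. A gene given without such a value may also depend on that library.

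TFE3 itself was checked first. In MITFKO cells it was at 71.8, 73.8 and 79.2 CPM. Clone 3 held 8.28, 8.71 and 11.7 CPM, and clone 13 held 43.4, 48.1 and 49.1 CPM. Wild-type A375 held 120, 114 and 126 CPM and the TFE3KO line 11.7, 12.2 and 10.9 CPM. No edited library overlapped its controls, but clone 13 kept the larger part of its TFE3 RNA. TFE3 fell by 2.97 on the log2 scale in clone 3, by 0.67 in clone 13 and by 3.37 in A375. The edited gene's RNA is not a measure of its protein, which was not measured here.

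MITF moved in opposite ways. Its level was 508 ± 29.9 CPM in the MITFKO parent, 795 ± 29.4 in clone 3 and 892 ± 67.3 in clone 13. In A375 it was 34.8 ± 4.01 CPM in wild type and 18 ± 0.789 in TFE3KO. The groups did not overlap in either line. The interaction was 1.68 ± 0.0948 (log2 ± SE, edgeR adjusted p = 1.25e-13). The MITFKO label is a genotype, and RNA from the edited gene remained at a high level in these cells. TFEB was at 1.34 to 1.62 CPM on average in the SKMEL28 groups and was not called there. In A375 it went from 2.64 ± 0.84 to 1.42 ± 0.331 CPM (edgeR adjusted p = 0.0462), a call that was lost in 6 of the 15 fits with 1 library left out. TFEC was too low to be tested, with 17 counts over all wild-type A375 libraries and at most 3 in any other group.

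Over all genes, the interaction was called higher for 2786 (18.5% of those tested) and lower for 2907 (19.3%), together 37.7%. A higher interaction means that the DKO change lay above the A375 change, not that the gene rose in the DKO clones. The DKO mean alone was called higher for 3202 genes (21.2%) and lower for 3247 (21.5%). A375 TFE3KO was called higher for 2459 (16.3%) and lower for 2401 (15.9%). Both contrasts were called for 2568 genes. Of these, 1410 moved the same way, 757 higher in both (5.02% of genes tested) and 653 lower in both (4.33%). A further 1158 moved in opposite ways, 573 higher in the DKO clones and lower in A375 (3.8%) and 585 lower in the DKO clones and higher in A375 (3.88%), together 7.67%. Same-way genes made up 54.9% and opposite genes 45.1% of those called in both lines. Same-way genes were 21.9% of the genes called in the DKO mean and 29% of those called in A375, and opposite genes 18% and 23.8%. Of the A375-higher genes, 30.8% were also higher in the DKO mean and 23.8% were lower there.

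Across the 9876 genes with at least 5 CPM in both lines, the 2 contrasts had Pearson r = 0.0676 and Spearman rho = 0.0604, given as a description since genes are not independent replicates. Among the same-way rises, 442 had no called interaction, 98 were larger in the DKO clones and 217 were larger in A375. Among the same-way falls the numbers were 468, 69 and 116. A change of at least 1 log2 unit in both lines was found for 40 same-way rises, 50 same-way falls, 24 genes higher in DKO and lower in A375, and 51 genes lower in DKO and higher in A375. Clone 3 alone was called for 37.6% of genes and clone 13 alone for 42.4%. When each clone had to be called on its own, 454 rises (3.01% of genes tested) and 332 falls (2.2%) stayed same-way, and 330 (2.19%) and 343 (2.27%) stayed opposite.

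**Figure D1:**
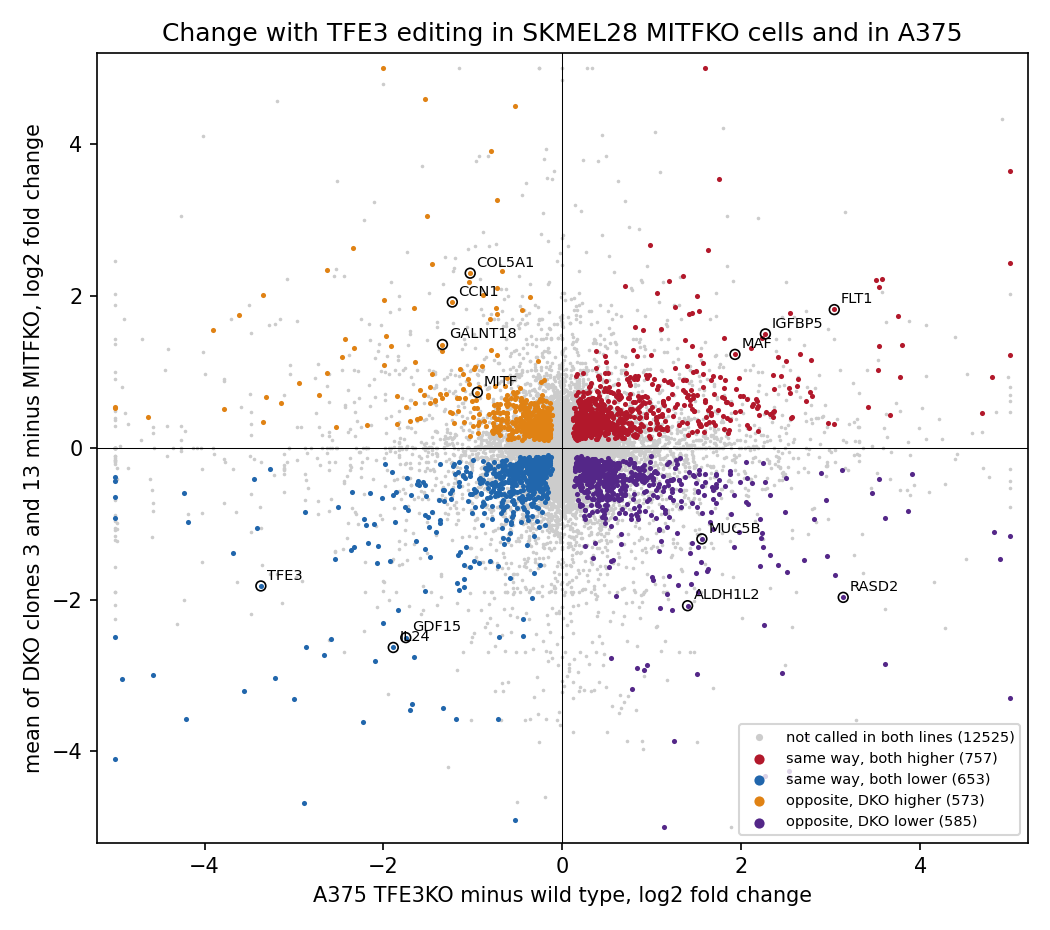
Each point is 1 of the 15093 genes tested, with the A375 change (TFE3KO minus wild type, log2) on the horizontal axis and the change in the mean of DKO clones 3 and 13 (minus MITFKO, log2) on the vertical axis; 75 genes beyond 5 log2 units are drawn at the border. Coloured points are the 757, 653, 573 and 585 genes called in both lines, which fill all 4 quadrants in similar numbers.

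FLT1, a receptor for VEGF, led the same-way rises when genes at 5 CPM or more were ranked by the smaller of their 2 changes. It was at 4.25, 4.72 and 4.47 CPM in MITFKO, at 12.5, 11.7 and 13 in clone 3 and at 17, 28.5 and 15.2 in clone 13. Wild-type A375 gave 13.9, 14.5 and 12.1 CPM and TFE3KO 111, 110 and 113. No library of an edited group came near its controls, and clone 13 replicate 2 was the highest of the SKMEL28 libraries. FLT1 rose by 1.82 in the DKO mean (1.67 without that library) and by 3.04 in A375, with an interaction of -1.22 (edgeR adjusted p = 0.000452). FLT1 lies on chromosome 13, where the median change over 277 genes in A375 was 0.31.

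MAF, a basic leucine zipper factor, was at 94, 84.2 and 87.7 CPM in MITFKO and between 181 and 227 CPM in the 6 DKO libraries. In A375 it was at 10.2, 11.8 and 10.6 CPM against 41.7, 42.7 and 39.7 in TFE3KO. The DKO change was 1.23 ± 0.0542 and the A375 change 1.93 ± 0.0753 (log2 ± SE). IGFBP5, a secreted binding protein of insulin-like growth factors, went from 6.12 ± 0.428 CPM to 11.7 ± 1.72 and 25.5 ± 3.23 in the clones, and from 4.79 ± 1.36 to 23.1 ± 1.31 in A375. S100A2, a calcium-binding protein, rose 2.33-fold in the DKO mean and 2.91-fold in A375. MOXD1, a member of the copper monooxygenase family, rose 2.68-fold and 2.58-fold with an interaction of 0.05, so the changes in the lines were within their error of each other. PTGES, the inducible prostaglandin E synthase, rose 3.44-fold and 2.73-fold. Its clone 13 libraries were unequal at 26.3, 58.6 and 25.1 CPM, and its DKO change was 1.54 without replicate 2 against 1.78 with it.

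Among the same-way falls, IL24, a cytokine of the IL-10 family, was at 109, 123 and 112 CPM in MITFKO, at 23.6, 20.7 and 22.4 in clone 3 and at 16.7, 13.4 and 16.3 in clone 13. In A375 it was at 48.3, 47.1 and 55.5 CPM against 13.1, 14.3 and 13.5. All edited libraries lay below all of their controls, with a 6.19-fold fall in the DKO mean and a 3.7-fold fall in A375. GDF15, a stress-induced TGF-beta superfamily ligand, went from 44.6 ± 1.78 to 8.55 ± 0.677 and 7.21 ± 1.41 CPM in the clones and from 5.49 ± 0.205 to 1.64 ± 0.179 in A375. NRROS, a protein that anchors latent TGF-beta, fell 2.87-fold and 4.2-fold. SYT14, a synaptotagmin, fell 2.45-fold and 4.17-fold, and PDGFA, a platelet-derived growth factor chain, 2.66-fold and 2.24-fold. For NRROS and PDGFA the interaction was not called (edgeR adjusted p = 0.083 and 0.323), while it was called for SYT14, whose change was larger in A375, and for IL24 and GDF15, whose changes were larger in the DKO clones.

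**Figure D2:**
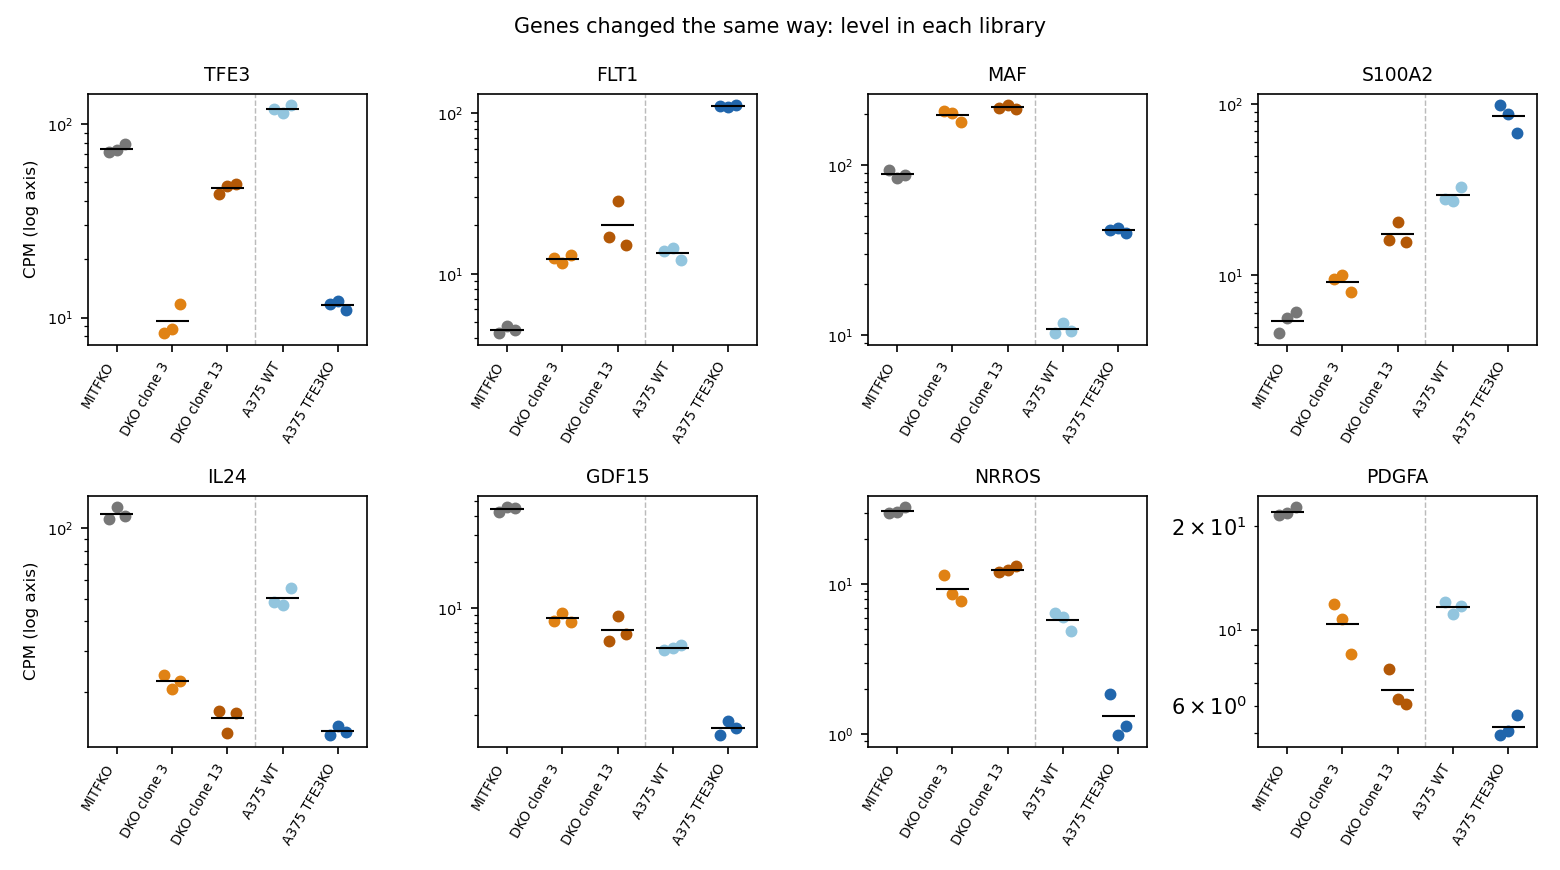
Level in each of the 15 libraries (CPM, log axis; points are cultures, bars are means of 3) of 8 genes that moved the same way in SKMEL28 (left of the dashed line) and A375 (right of it). In each panel the TFE3KO libraries of A375 and those of both DKO clones lie on the same side of their controls, and TFE3 in clone 13 lies between MITFKO and clone 3.

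The E-box core bound by the MiT/TFE family was looked for on both strands of the 250 bases before the RefSeq start (assembly GRCh38.p14). Only genes with an available promoter were searched. CACGTG, which also covers the longer TCACGTG, was in 8.72% of the 11738 promoters of tested genes and in 6.49% of all 27305 promoters. It was in 8.96% of the same-way rises, 10.6% of the same-way falls, 7.72% of the opposite genes that were higher in DKO and 9.55% of those lower in DKO. TCACGTG was in 5.09% of promoters of tested genes and in 4.48%, 7.59%, 2.51% and 5.1% of the same 4 sets. TCATGTG, the M-box-like form, was in 1.43% of tested genes and in 1.12%, 1.33%, 1.67% and 1.49%. The promoters of 4 same-way genes that hold a match are shown, 1 that fell and 3 that rose, as the 250 bases before the start, 5′ to 3′, with the match in capitals.
SYT14 (chr1:209937967-209938216, + strand): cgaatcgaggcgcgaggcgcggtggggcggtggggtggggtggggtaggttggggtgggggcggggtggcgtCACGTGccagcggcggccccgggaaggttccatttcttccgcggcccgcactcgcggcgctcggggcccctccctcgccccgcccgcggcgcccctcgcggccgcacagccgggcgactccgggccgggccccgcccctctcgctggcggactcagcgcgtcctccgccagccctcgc
CTSF (chr11:66568607-66568856, - strand): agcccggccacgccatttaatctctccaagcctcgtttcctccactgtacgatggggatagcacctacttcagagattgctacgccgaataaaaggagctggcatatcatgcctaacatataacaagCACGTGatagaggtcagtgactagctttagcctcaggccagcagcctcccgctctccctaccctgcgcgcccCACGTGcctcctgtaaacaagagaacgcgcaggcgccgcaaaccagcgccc
INSIG1 (chr7:155297628-155297877, + strand): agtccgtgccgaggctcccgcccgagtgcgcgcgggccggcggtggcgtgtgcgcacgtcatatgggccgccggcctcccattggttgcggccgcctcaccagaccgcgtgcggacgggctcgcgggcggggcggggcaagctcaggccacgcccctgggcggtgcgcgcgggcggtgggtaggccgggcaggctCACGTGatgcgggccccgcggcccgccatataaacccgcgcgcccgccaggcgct
SPRY2 (chr13:80341127-80341376, - strand): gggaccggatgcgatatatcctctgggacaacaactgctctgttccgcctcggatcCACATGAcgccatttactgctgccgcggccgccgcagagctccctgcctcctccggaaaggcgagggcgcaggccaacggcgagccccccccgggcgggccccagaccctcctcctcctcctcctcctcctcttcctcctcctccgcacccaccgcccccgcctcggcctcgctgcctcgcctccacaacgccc
The match starts 178 bases before the start in SYT14, 123 and 51 in CTSF, and 55 in INSIG1. In SPRY2 it is the reverse complement of TCATGTG, 194 bases before the start. SYT14 fell in both lines, and CTSF, INSIG1 and SPRY2 rose in both. A match of letters is a description and says nothing of binding.

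Genes that were higher in the DKO clones and lower in A375 TFE3KO included matrix and adhesion genes. COL5A1, a fibrillar collagen chain, was at 4.39, 4.21 and 4.58 CPM in MITFKO, at 11.3, 11.1 and 12.1 in clone 3 and at 36.9, 45 and 40.1 in clone 13. In A375 it went from 142, 144 and 140 CPM to 71.9, 67 and 68.9. The groups were apart in both lines, and the 2 clones were apart from each other. CCN1, a matricellular protein induced by YAP, was at 1.04, 1.69 and 1.68 CPM in MITFKO, at 4.64 to 7.65 in clone 3 and at 4.49 to 5.01 in clone 13, and fell in A375 from 169 ± 2.62 to 71.9 ± 1.41 CPM. Its interaction was 3.15 ± 0.182 (log2 ± SE, edgeR adjusted p = 4.27e-14).

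GALNT18, an enzyme of mucin-type O-glycosylation, went from 18.4 ± 1.45 CPM to 33.9 ± 4.05 and 65.8 ± 20.2 in the clones and from 16.1 ± 0.755 to 6.31 ± 0.549 in A375. The DKO change of GALNT18 was 1.36 with clone 13 replicate 2 and 1.23 without it. TMEM132A, a single-pass membrane protein, rose 2.19-fold in the DKO mean and fell 3.13-fold in A375. P3H2, a collagen prolyl hydroxylase, rose 2.05-fold and fell 2.21-fold. PODXL, a sialomucin of the podocyte surface, rose 2.06-fold and fell 1.98-fold.

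In the other direction, RASD2, a small GTPase of the Ras family, had an interaction of -5.11 ± 0.308 (log2 ± SE). It was at 35.9, 34.1 and 34.6 CPM in MITFKO, at 8.4, 6.33 and 6.33 in clone 3 and at 11.3, 8.75 and 13.8 in clone 13, while in A375 it went from 0.825, 0.186 and 0.938 CPM to 5.27, 5.71 and 6.46. ALDH1L2, a mitochondrial folate enzyme, was at 75.8, 74.5 and 68.8 CPM in MITFKO, at 23.5, 28 and 25.7 in clone 3 and at 12.4, 11 and 11.3 in clone 13. In A375 it rose from 10.5, 11.4 and 7.64 CPM to 23.2, 25.4 and 29.8. The lines were thus far apart in their controls and closer to each other after the edit.

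SLC7A11, the cystine importer, went from 463 ± 27.3 CPM to 256 ± 28.4 and 152 ± 24.6 in the clones and from 52.2 ± 3.24 to 112 ± 1.29 in A375. It lies on chromosome 4, where the median change in clone 13 was -0.34 over 557 genes and in clone 3 was 0. PELI2, an E3 ligase of innate immune signalling, fell 3.13-fold in the DKO mean and rose 2.83-fold in A375. JDP2, a repressor of AP-1 sites, fell 2.47-fold and rose 3.77-fold, and its clone 13 libraries ranged from 1.14 to 4.09 CPM. The DKO change of JDP2 was -1.30 with clone 13 replicate 2 and -1.10 without it. MUC5B, a gel-forming mucin, fell 2.3-fold and rose 2.95-fold.

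**Figure D3:**
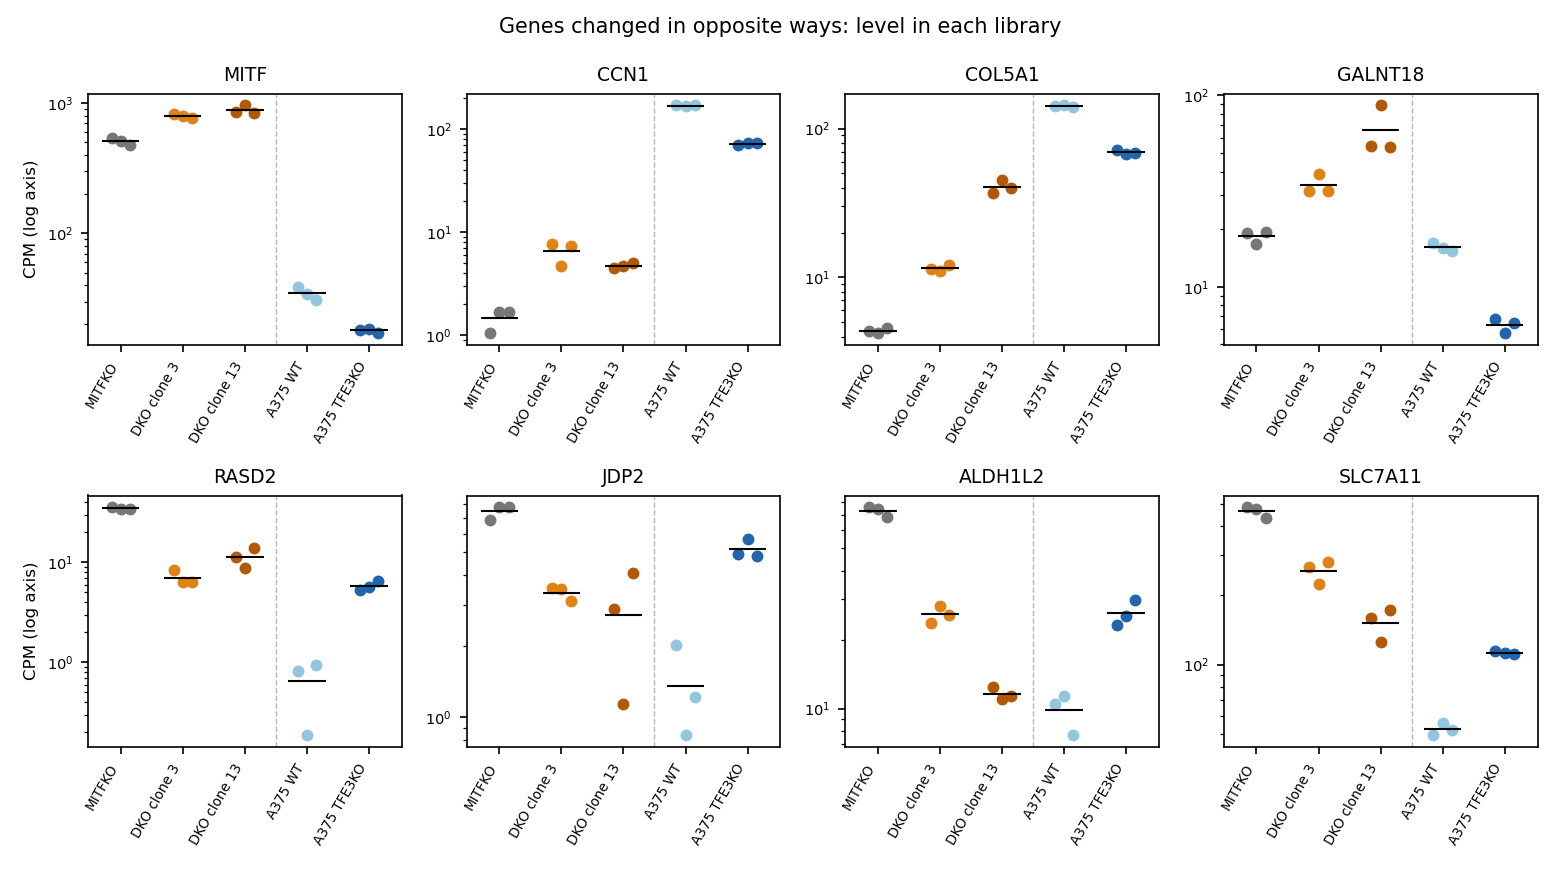
Level in each of the 15 libraries (CPM, log axis; points are cultures, bars are means of 3) of 8 genes that moved in opposite ways. MITF, CCN1, COL5A1 and GALNT18 are higher in both DKO clones than in MITFKO and lower in A375 TFE3KO than in wild type, and RASD2, JDP2, ALDH1L2 and SLC7A11 show the reverse.

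ATF4 and its targets split by line. Of 36 tested members, 18 were lower in the DKO clones and higher in A375 TFE3KO, against 3.88% of all genes tested, and none showed the reverse pattern. The DKO mean was called lower for 27 and higher for 2, against 21.5% and 21.2% of all genes. A375 was called higher for 23 and lower for 6, against 16.3% and 15.9%, so the 6 were near the share of all genes. The list's median log2 change was -0.88 in the DKO mean, 0.38 in A375 and -1.18 in the interaction, against -0.005, 0 and -0.019 over all genes tested. ATF4 itself, chosen here after its values were seen, was at 618, 658 and 667 CPM in MITFKO and between 364 and 398 CPM in the 6 DKO libraries. In A375 it went from 308, 287 and 311 CPM to 408, 422 and 377. Every DKO library lay below every MITFKO library, and every TFE3KO library above wild type.

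ADM2, a peptide hormone gene, had an interaction of -4.59 ± 0.258, from 42.3 ± 5.45 CPM to 11.8 ± 1.6 and 5.99 ± 1.17 in the clones and from 0.896 ± 0.201 to 4.24 ± 0.684 in A375. Of the members chosen after their values were seen, PHGDH, the first enzyme of serine synthesis, fell 1.39-fold in the DKO mean and rose 2.01-fold in A375. ASNS, asparagine synthetase, was low in these counts: 15 ± 1.04 CPM in MITFKO and 3.84 ± 0.982 and 4.17 ± 1.28 in the clones. In A375 it was at 0.574 ± 0.332 and 1.63 ± 0.192 CPM, from 37 and 122 counts. CHAC1, a glutathione-degrading enzyme, fell 2.09-fold and rose 3.21-fold. SESN2, a leucine sensor upstream of mTORC1, fell 2.38-fold and rose 1.29-fold.

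GDF15, CEBPB, ATF3 and TRIB3 fell in both lines. CEBPB, a C/EBP factor, went from 259 ± 13.1 CPM to 130 ± 7.04 and 110 ± 7.35 in the clones and from 94.1 ± 6.86 to 62.8 ± 4.41 in A375. TRIB3, a pseudokinase induced by ATF4, fell 3.13-fold in the DKO mean and 1.24-fold in A375. DDIT3, the stress factor CHOP, was called only in the DKO mean, with 86.2 ± 5.64 CPM in MITFKO, 22.5 ± 0.626 and 17.6 ± 1.01 in the clones, 10.5 ± 1.28 in wild-type A375 and 9.72 ± 0.649 in TFE3KO. LAMP3, a lysosome-associated membrane protein that was chosen after its values were seen, fell 18.5-fold in the DKO mean and was not called in A375, where it had 35 counts in wild type and 16 in TFE3KO. STC2 had at most 7 counts in any SKMEL28 group, too few to read a change there.

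The C/EBP-ATF core TTGCATC was in 3.4% of promoters of genes lower in DKO and higher in A375, in 0.209% of those with the reverse pattern, and in 1.25% of all tested genes, on either strand of the same 250 bases. These are 16 of 471, 1 of 479 and 147 of 11738 promoters. Among the 13 opposite members of the ATF4 list with an entry in the promoter table, it was found in 1, CHAC1, shown here with the match in capitals, 209 bases before the start.
CHAC1 (chr15:40953221-40953470, + strand): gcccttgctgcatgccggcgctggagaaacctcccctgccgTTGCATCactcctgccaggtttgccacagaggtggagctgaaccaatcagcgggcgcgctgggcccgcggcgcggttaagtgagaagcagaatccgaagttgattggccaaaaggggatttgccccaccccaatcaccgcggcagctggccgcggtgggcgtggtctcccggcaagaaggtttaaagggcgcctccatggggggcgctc

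The cytosolic tRNA synthetases, which charge amino acids to tRNA and include known ATF4 targets, went in both directions. The interaction was called lower for 9 of 19 and higher for 7, against 19.3% and 18.5% of all genes. Lower in the DKO mean and higher in A375 were 8 of 19, against 3.88% of all genes: the enzymes for alanine, cysteine, glycine, isoleucine, methionine, serine, tryptophan and tyrosine. GARS1 went from 764 ± 14.9 CPM to 509 ± 8.65 and 456 ± 9.76 in the clones and from 213 ± 7.43 to 329 ± 5.47 in A375. WARS1 fell 1.21-fold and rose 1.98-fold. FARSA had the reverse pattern. NARS1 fell in both, by 0.25 in the DKO mean and by 0.53 in A375; it lies on chromosome 18, where the A375 median was -0.27 over 222 genes.

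MAPK output genes, feedback inhibitors and early targets of ERK that report pathway activity in BRAF-mutant cells, also split by line. Of 21 tested, 9 were lower in the DKO clones and higher in A375, against 3.88% of all genes. None showed the reverse, against 3.8%. SPRY4, a Sprouty inhibitor, was at 635, 640 and 649 CPM in MITFKO, at 503, 536 and 533 in clone 3 and at 597, 578 and 609 in clone 13. In A375 it went from 43.5, 46.2 and 50.3 CPM to 241, 205 and 216, so the A375 rise was much the larger change, and in clone 13 alone the fall was not called. DUSP6, a phosphatase of ERK, went from 205 ± 2.71 to 133 ± 8.35 and 135 ± 7.72 CPM and from 134 ± 5.91 to 190 ± 5.8 in A375. EGR1, an immediate-early factor, fell 1.32-fold and rose 2.01-fold. SPRY1, on chromosome 4, fell in clone 13 (26.8 ± 2.37 CPM against 44.7 ± 2.9 in MITFKO) but stood at 44.6 ± 8.26 in clone 3, and rose in A375 from 1.56 ± 0.216 to 4.27 ± 0.695 CPM. SPRY2 rose in both lines, 1.33-fold and 2.11-fold; it is on chromosome 13, whose A375 median is given above. DUSP5, FOSL1 and LIF fell in both, FOSL1 without a call in clone 3 alone.

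Genes of the invasive melanoma state, a programme of low MITF and high AXL, showed the reverse split. Of 36 tested, 11 were higher in the DKO clones and lower in A375 TFE3KO, against 3.8% of all genes, and none showed the reverse. In A375, 24 were called lower and 5 higher, against 15.9% and 16.3% of all genes, with a median log2 change of -0.7. The DKO mean was called higher for 17 and lower for 7, against 21.2% and 21.5%, with a median of 0.27. The 5 higher in A375 and the 7 lower in the DKO mean were near those shares. AXL, the receptor tyrosine kinase that names the state, had 3 counts over the MITFKO libraries, 62 in clone 3 and 34 in clone 13. The ratio of clone 3 to MITFKO was 23.9, with a 95% exact interval from counting alone of 7.79 to 119. In A375 it went from 671, 636 and 671 CPM to 376, 374 and 393, so both DKO clones stayed far below A375 in AXL.

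CXCL8, a neutrophil chemokine on chromosome 4, was at 124 ± 11.8 CPM in MITFKO, 205 ± 18 and 194 ± 50.4 in the clones, and fell in A375 from 513, 528 and 540 CPM to 78.2, 74.2 and 86.9. The cytokine IL6 fell in A375 from 986 counts to 2, a ratio of 561 with a 95% counting interval of 155 to 4635, and had at most 14 counts in any SKMEL28 group. TGFBI, a TGF-beta-induced matrix protein, rose 2.34-fold in the DKO mean and fell 1.66-fold in A375. THBS1, an adhesive glycoprotein, rose 1.62-fold and fell 1.78-fold, and CAV1, the caveolar coat protein, 1.49-fold and 1.65-fold. These 5 genes were chosen after their values were seen. SLIT2 was called in both lines in opposite ways, but from 8, 37 and 23 counts in the SKMEL28 groups, and its DKO call was lost without MITFKO replicate 1 or replicate 2.

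Within the same list 6 genes fell in both lines, against 4.33% of all genes. FGF2, a fibroblast growth factor, fell from 14.7 ± 1.37 CPM to 7.3 ± 1.31 and 7.95 ± 0.117 in the clones and from 45.1 ± 2.43 to 17.6 ± 1.86 in A375. PDGFC fell 2.06-fold and 2.8-fold. FGF2 and PDGFC lie on chromosome 4. TNC, ANXA1 and IGFBP3 rose in both.

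**Figure D4:**
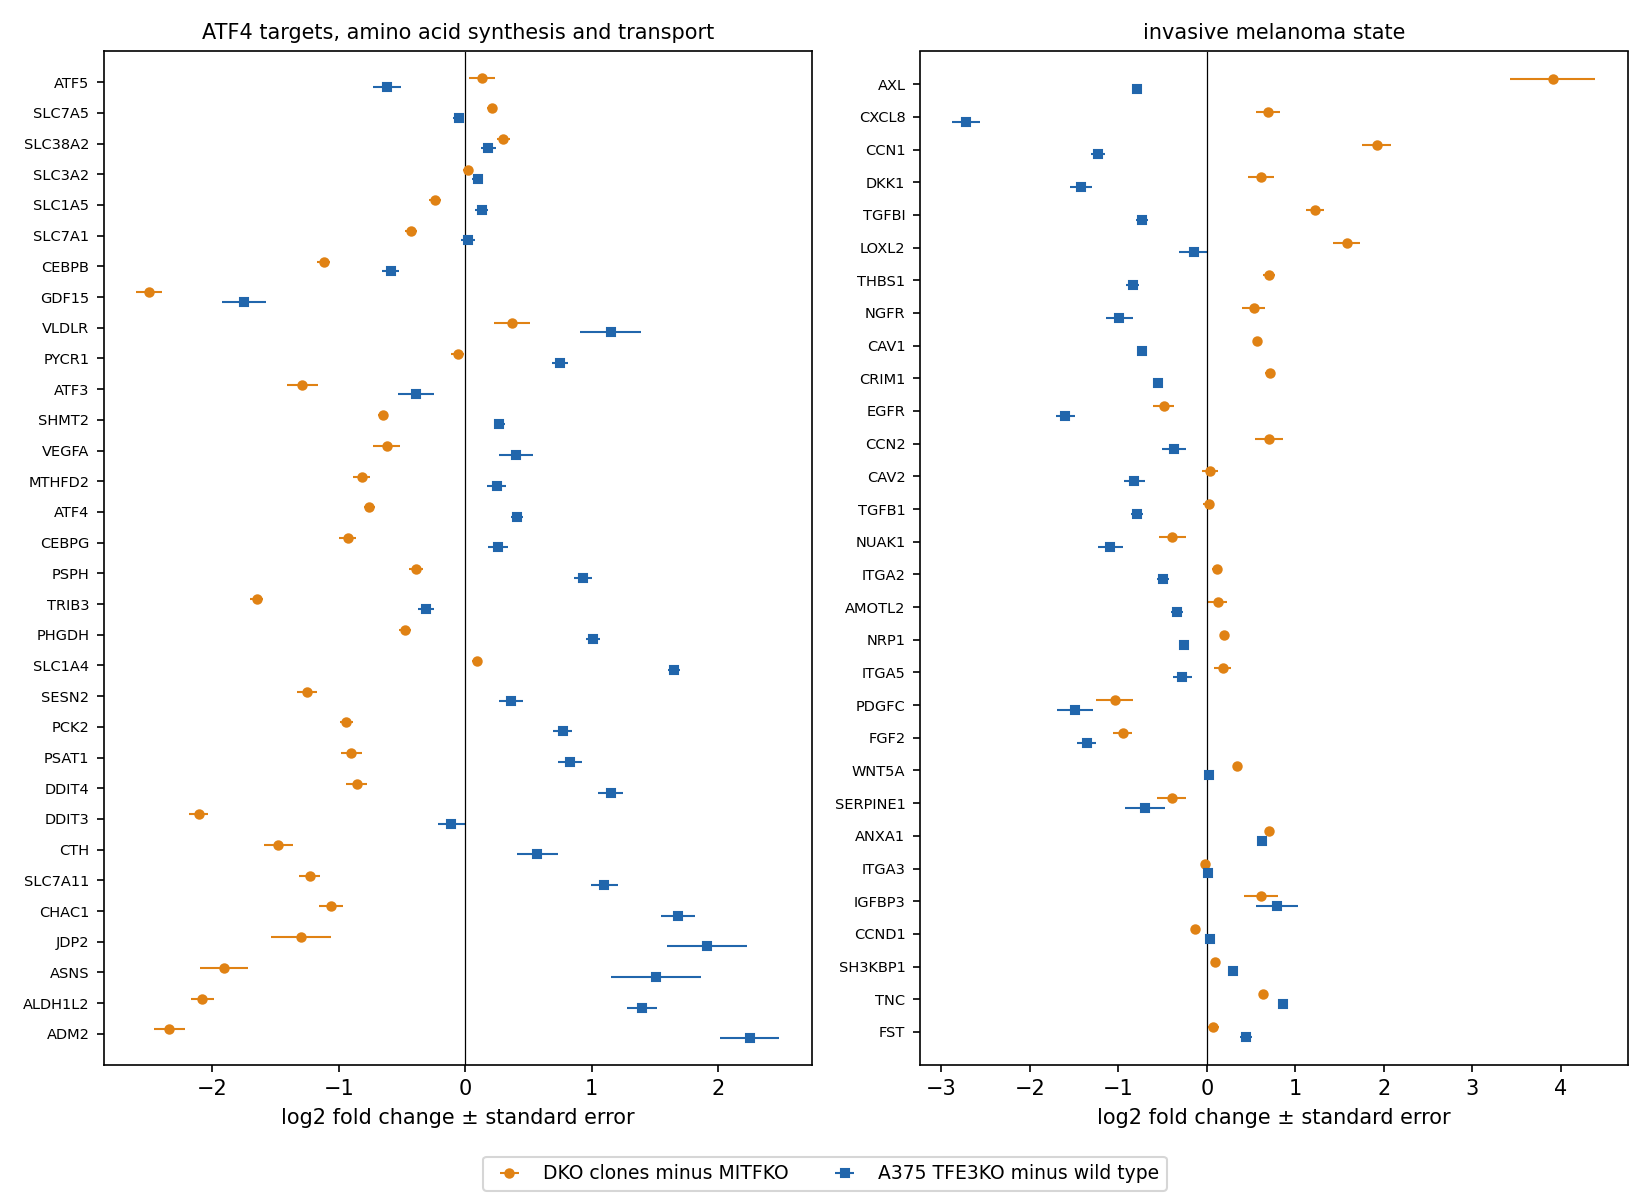
Change in the DKO clones (circles) and in A375 TFE3KO (squares), log2 with standard errors as bars, for members of the ATF4 list (32 of 36 tested) and the invasive-state list (30 of 36 tested) with at least 1 CPM in some group of each line, ordered by the interaction. For ATF4 members the circles lie mostly left of zero and the squares mostly right; in the upper part of the invasive list the circles lie right and the squares left.

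TGF-beta and YAP output genes had 13 of 22 members called higher and 3 lower in the DKO mean, and 6 higher and 10 lower in A375. Of all genes tested, 21.2% and 21.5% were called higher and lower in the DKO mean, and 16.3% and 15.9% in A375. Higher in DKO and lower in A375 were 5 members, against 3.8% of all genes: CCN1, AXL, TGFBI and both TGF-beta receptors, TGFBR1 and TGFBR2. TGFBR2 went from 72 ± 4.28 CPM to 96.7 ± 4.9 and 102 ± 5.52, and from 98.9 ± 3.94 to 42.1 ± 1.33 in A375. WWTR1, the YAP paralogue TAZ, had the reverse pattern, from 905 ± 22.1 to 569 ± 26 and 715 ± 16.7 CPM and from 409 ± 5.88 to 668 ± 9.75. ID2 and PMEPA1, a target and an inhibitor of TGF-beta signalling, rose in both lines, ID2 by 0.91 and 0.84 and PMEPA1 by 0.75 and 0.47 on the log2 scale.

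Extracellular matrix genes were mixed: of 39 tested, 8 rose in both lines and 2 fell in both, against 5.02% and 4.33% of all genes. Another 9 were higher in DKO and lower in A375 and 2 had the reverse pattern, against 3.8% and 3.88%. TIMP3, an inhibitor of metalloproteinases, rose from 3278 ± 97.2 CPM to 5200 ± 316 and 7171 ± 1817 in the clones and from 577 ± 14.5 to 2036 ± 28.7 in A375. Its DKO change was 0.90 with clone 13 replicate 2 and 0.80 without it. COL9A3 rose 2-fold in the DKO mean and 2.75-fold in A375. LAMA4, a laminin chain, rose 1.4-fold and 5.16-fold.
LAMA1, another laminin chain, rose from 213 ± 3.67 CPM to 302 ± 9.91 and 315 ± 41.4 in the clones and fell in A375 from 498 counts to 6, a ratio of 94.4 with a 95% counting interval of 43.1 to 258. It is on chromosome 18, whose A375 median is given above. FN1, fibronectin, was called higher in clone 13 and not in clone 3 (12750 ± 861 CPM against 5713 ± 103 in MITFKO and 6090 ± 102 in clone 3) and fell in A375 from 286 ± 9.34 to 107 ± 5.4 CPM. COL4A2, a basement membrane collagen, had 96 counts in MITFKO and 13 and 10 in the clones, and rose in A375 from 729 ± 29.9 to 1303 ± 66.2 CPM. COL4A1, its neighbour on the chromosome, rose 2.29-fold in A375 and was not called in the DKO mean; both are on chromosome 13. MMP3 fell in A375 from 245 counts to 10 and was not called in the DKO mean.

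The fibroblast marker list summed to 52.9 to 64.1 CPM in MITFKO, 100 to 107 in clone 3, 70.6 to 77.9 in clone 13, 8.37 to 9.53 in wild-type A375 and 4.91 to 7.27 in A375 TFE3KO. Most of it in SKMEL28 was LUM, while DPT and PDPN were at 0 there. The part of these transcripts in the matrix results was not tested. Of the 6 fibroblast markers tested, DCN was called higher in both lines, near the threshold in the DKO mean (edgeR adjusted p = 0.0498).

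Integrin and focal adhesion genes were called higher for 13 of 28 in the DKO mean and 7 in A375, and lower for 2 and 11. Of all genes tested, 21.2% and 16.3% were called higher and 21.5% and 15.9% lower. ITGB3, a vitronectin receptor chain, rose in A375 from 69.7 ± 3.62 to 197 ± 8.45 CPM and in clone 13 from 896 ± 30.6 to 1158 ± 127, with clone 3 at 946 ± 28.5 and not called alone. ITGA6 and ITGB5 rose in both lines by 1.22-fold to 1.48-fold. ITGA1 differed between the clones, at 33.5 ± 3 CPM in clone 3 and 92.2 ± 8.21 in clone 13 against 60.6 ± 2.6 in MITFKO, and rose in A375 from 51.6 ± 3.68 to 104 ± 6.66 CPM. FLNA, an actin cross-linker, rose 1.27-fold in the DKO mean and fell 1.35-fold in A375, and ITGB1 rose 1.51-fold in the DKO mean and was not called in A375.

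Of 46 genes tested on the lysosomal list of known targets, the DKO mean was called higher for 25 and lower for 4. The shares of all genes were 21.2% and 21.5%. A375 was called higher for 11 and lower for 9, against 16.3% and 15.9%. In both lines 9 rose and 2 were called lower, against 5.02% and 4.33% of all genes, so the 2 were near that share. CTSF, a cathepsin, was at 22.6, 22.6 and 26.4 CPM in MITFKO, at 26.6, 31.2 and 30.3 in clone 3 and at 43.6, 52.6 and 47.9 in clone 13, and went from 15.8, 17.6 and 16.7 CPM to 30.4, 29.1 and 23.6 in A375. CTSZ and LAMP1, another cathepsin and a major lysosomal membrane protein, rose 1.31-fold and 1.18-fold in the DKO mean and 1.64-fold and 1.29-fold in A375. NPC1, the lysosomal cholesterol exporter, fell 1.23-fold and 1.46-fold and lies on chromosome 18. CTSS fell in A375 from 54.6 ± 1.58 to 5.81 ± 1.06 CPM, while its SKMEL28 call rests on 19, 13 and 0 counts.
GLA, alpha-galactosidase, was higher in both clones (43.5 ± 1.15 to 61 ± 2.54 and 59 ± 0.65 CPM) and lower in A375 (44.8 ± 3.36 to 35.3 ± 0.163). LGMN had the same pattern, and its A375 call was lost in 4 of the 15 fits with 1 library left out. NPC2 was lower in A375 and higher in clone 13 (0.54 on the log2 scale), while clone 3 was at -0.02 and not called. GBE1, the glycogen branching enzyme, is on the list but is not a lysosomal hydrolase or membrane protein. GBE1 rose in the DKO mean and was not called in A375. It was at 146 ± 50.4 CPM in clone 13, and its DKO change was 1.08 without replicate 2 against 1.23 with it. The list was chosen as known E-box targets, and CACGTG was in 10 of its 29 promoters in the table (34.5%).

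The V-ATPase subunits, which acidify the lysosome, had a called interaction for 13 of 23, against 37.7% of all genes. In each the DKO change lay above the A375 change. Without replicate 3 of wild-type A375 the number was 8. The DKO mean was called higher for 9 (21.2% of all genes) and lower for none (21.5%), but the clones differed. Clone 3 alone was called higher for 11 (19.1%) and lower for none (18.5%). Clone 13 alone was called higher for 8 (21.4%) and lower for 6 (21%). A375 was called higher for 3 (16.3%) and lower for 7 (15.9%). ATP6V0A4 rose from 0.578 ± 0.104 CPM to 5.44 ± 0.964 and 2.56 ± 0.122 in the clones and from 5.1 ± 0.739 to 10.1 ± 0.682 in A375. The accessory subunits ATP6AP1 and ATP6AP2 rose in both lines. ATP6V1C2 was below 2 CPM in every library and is not read further.

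Of 34 autophagy genes, 14 were called lower and 7 higher in the DKO mean, against 21.5% and 21.2% of all genes. The 7 higher were near that share. In A375 8 were higher and 4 lower, against 16.3% and 15.9%. SQSTM1, the cargo receptor p62, fell in both lines, from 2450 ± 66.4 CPM to 2093 ± 30.8 and 1790 ± 43.5 and from 870 ± 3.92 to 483 ± 11.9. WIPI1, a phosphoinositide-binding autophagy protein, fell 1.6-fold and 1.33-fold, although its A375 call was lost without TFE3KO replicate 2. ATG14 fell 1.68-fold in the DKO mean and was not called in A375, with the interaction called. OPTN fell 2.02-fold in A375 and by 0.28 on the log2 scale in clone 3, and was not called in clone 13 or the DKO mean. Folliculin and Rag GTPase genes included 4 same-way falls of 32 tested, against 4.33% of all genes: FLCN, FNIP1, RRAGC and SEH1L. The number was 1 or 2 without replicate 1 of MITFKO, replicate 1 or 3 of wild-type A375, or replicate 1 or 2 of TFE3KO. FLCN fell from 53.4 ± 1.77 CPM to 50.2 ± 1.67 and 42.2 ± 3.03 and from 25.9 ± 2.12 to 20 ± 0.878. RRAGD, a Rag GTPase known as a target of the family, rose in A375 from 5.71 ± 1.08 to 9.2 ± 0.965 CPM and was not called in the DKO mean. DDIT4, an inhibitor of mTORC1, was lower in both clones (643 ± 49 to 494 ± 50 and 255 ± 32.8 CPM) and higher in A375 (94.2 ± 4.19 to 208 ± 20.6). SESN3 rose only in A375, 3.65-fold.

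Metabolic lists moved mainly in the DKO clones. Of 22 glycolysis genes, 18 were called higher in the DKO mean and 7 in A375, and 7 rose in both. The shares of all genes tested were 21.2%, 16.3% and 5.02%. The median log2 change was 0.82 in the DKO mean and 0.1 in A375. PGK1, phosphoglycerate kinase, was at 555, 533 and 544 CPM in MITFKO, 924, 1144 and 906 in clone 3 and 1509, 2090 and 1505 in clone 13, and between 799 and 819 CPM in all 6 A375 libraries. Replicate 2 was the highest library in each clone. The interaction of PGK1 was 1.27, and 1.19 without clone 13 replicate 2. PDK1 and PFKFB4 rose in both lines, PDK1 by 1.22 and 0.48 and PFKFB4 by 0.73 and 0.54 on the log2 scale. LDHA rose 1.96-fold in the DKO mean and 1.12-fold in A375, where the call was near the threshold (edgeR adjusted p = 0.0406). ENO2 and ENO1 rose in the DKO mean, 2.01-fold and 1.92-fold, and were not called in A375. The DKO change of ENO2 was 1.01 with clone 13 replicate 2 and 0.88 without it. PFKP rose 1.54-fold in the DKO mean and fell 1.14-fold in A375. With 1 A375 library left out, the A375 call of LDHA was lost in 6 of 6 fits and that of PFKP in 5 of 6. Without clone 13 replicate 2, 10 genes of the list rose in both lines and 5 were higher in DKO and lower in A375, against 7 and 1 with it.

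Ribosomal protein genes were called higher in the DKO mean for 29 of 32 and in A375 for none, with medians of 0.28 and 0.01 on the log2 scale. For this list and the next 2, the shares of all genes called higher were 21.2% in the DKO mean and 16.3% in A375. Ribosomal protein genes have many processed copies in the genome, so their counts depend on how shared reads were assigned. Respiratory chain genes were called higher for 25 of 33 in the DKO mean and 3 in A375; NDUFA4 and COX5A rose in both, the former by 0.43 and 0.24. Cell cycle genes were called higher for 17 of 32 in the DKO mean and 5 in A375, and clone 3 alone was called higher for 27 (19.1% of all genes tested) and clone 13 alone for 8 (21.4%). BIRC5, survivin, was at 62.8 ± 5.08 CPM in MITFKO, 134 ± 3.32 in clone 3, 89.1 ± 9.8 in clone 13 and 160 ± 3.7 and 144 ± 3.17 in A375. The interaction was called higher for 12 cell cycle genes, against 18.5% of all genes, and for 22 without clone 13 replicate 2.

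Cholesterol synthesis genes rose in both lines for 5 of 24, against 5.02% of all genes, among them IDI1, FDFT1 and INSIG1. INSIG1, which retains the sterol sensor complex in the endoplasmic reticulum, went from 26.2 ± 2.03 CPM to 33.6 ± 2.36 and 39.1 ± 1.7 in the clones, and from 12.2 ± 1.13 to 21.8 ± 3.83 in A375. Among p53 targets, 10 of 21 were lower in the DKO mean and 4 in A375, against 21.5% and 15.9% of all genes. GADD45A fell in both (1.7-fold and 1.26-fold). CDKN1A fell 1.75-fold in the DKO mean only, and TP53INP1 fell 1.37-fold in DKO and rose 1.76-fold in A375. Among NRF2 targets, HMOX1, haem oxygenase, fell 2.2-fold in the DKO mean only, and NQO1 rose 2.25-fold in A375 only. SRXN1 fell in both, by 0.38 and 0.50, with clone 3 alone not called. AKR1C1 fell in A375 from 5.71 ± 0.564 to 0.539 ± 0.254 CPM and less in the DKO mean, and shares sequence with its paralogues.

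The neural crest and lineage list holds factors such as SOX9 and markers such as S100B. Of its 22 genes tested, 6 rose in both lines, against 5.02% of all genes. SOX10, the lineage factor itself, was at 838 ± 37 CPM in MITFKO, 955 ± 17.5 and 971 ± 40 in the clones, 504 ± 14.8 in wild-type A375 and 786 ± 37.8 in TFE3KO. ERBB3, a receptor of neuregulin and a SOX10 target, rose from 329 ± 7 to 364 ± 12.7 and 393 ± 14.5 CPM, and from 140 ± 2.4 to 382 ± 6.29 in A375. S100B rose 1.54-fold and 6.63-fold, SOX5 2.02-fold and 2.82-fold, and SOX2 1.6-fold and 1.79-fold. Lower in DKO and higher in A375 were 5 members, against 3.88% of all genes. The number was 3 without clone 13 replicate 2 or replicate 1 or 2 of MITFKO. Among the 5 members LEF1, a Wnt effector on chromosome 4, fell 1.12-fold and rose 2.41-fold, and PAX3 fell 1.43-fold and rose 1.24-fold. SOX9 fell in A375 from 9.68 ± 1.74 to 1.79 ± 0.393 CPM and was below 1 CPM throughout SKMEL28.

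Of 28 melanocyte differentiation genes, 7 were higher and 9 lower in the DKO mean (21.2% and 21.5% of all genes), and 7 and 3 in A375 (16.3% and 15.9%). EDNRB, the endothelin receptor of melanocytes, rose 1.34-fold and 3.47-fold; it lies on chromosome 13. QPCT fell 2.95-fold and 1.64-fold. OCA2, a melanosome transporter, went from 11.1 ± 0.412 to 5.37 ± 1.01 and 6.89 ± 1.45 CPM and from 0.512 ± 0.189 to 1.44 ± 0.747, an A375 call that was lost without TFE3KO replicate 1. Among 9 EMT factors and cadherins, VIM, vimentin, rose 1.31-fold and 1.13-fold. ZEB2 rose 2.1-fold in A375 only. SNAI2 rose 4.17-fold in A375, from 0.51 ± 0.165 to 2.13 ± 0.302 CPM, and was at 115 ± 1.08, 98.7 ± 3.35 and 102 ± 14.5 CPM in the SKMEL28 groups; its DKO fall was no longer called when any 1 MITFKO replicate or clone 13 replicate 2 was left out. TWIST2 had 4 counts in all SKMEL28 libraries together, too few to read a change there. Among 29 interferon and antigen presentation genes, CD74, the class II invariant chain, rose 2.5-fold in A375 only, and HLA-DRB1, whose reads can be shared with other class II beta genes, rose 1.28-fold and 3.67-fold. IFI44 was called lower in both lines, in the DKO mean near the threshold (edgeR adjusted p = 0.0415).

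**Figure D5:**
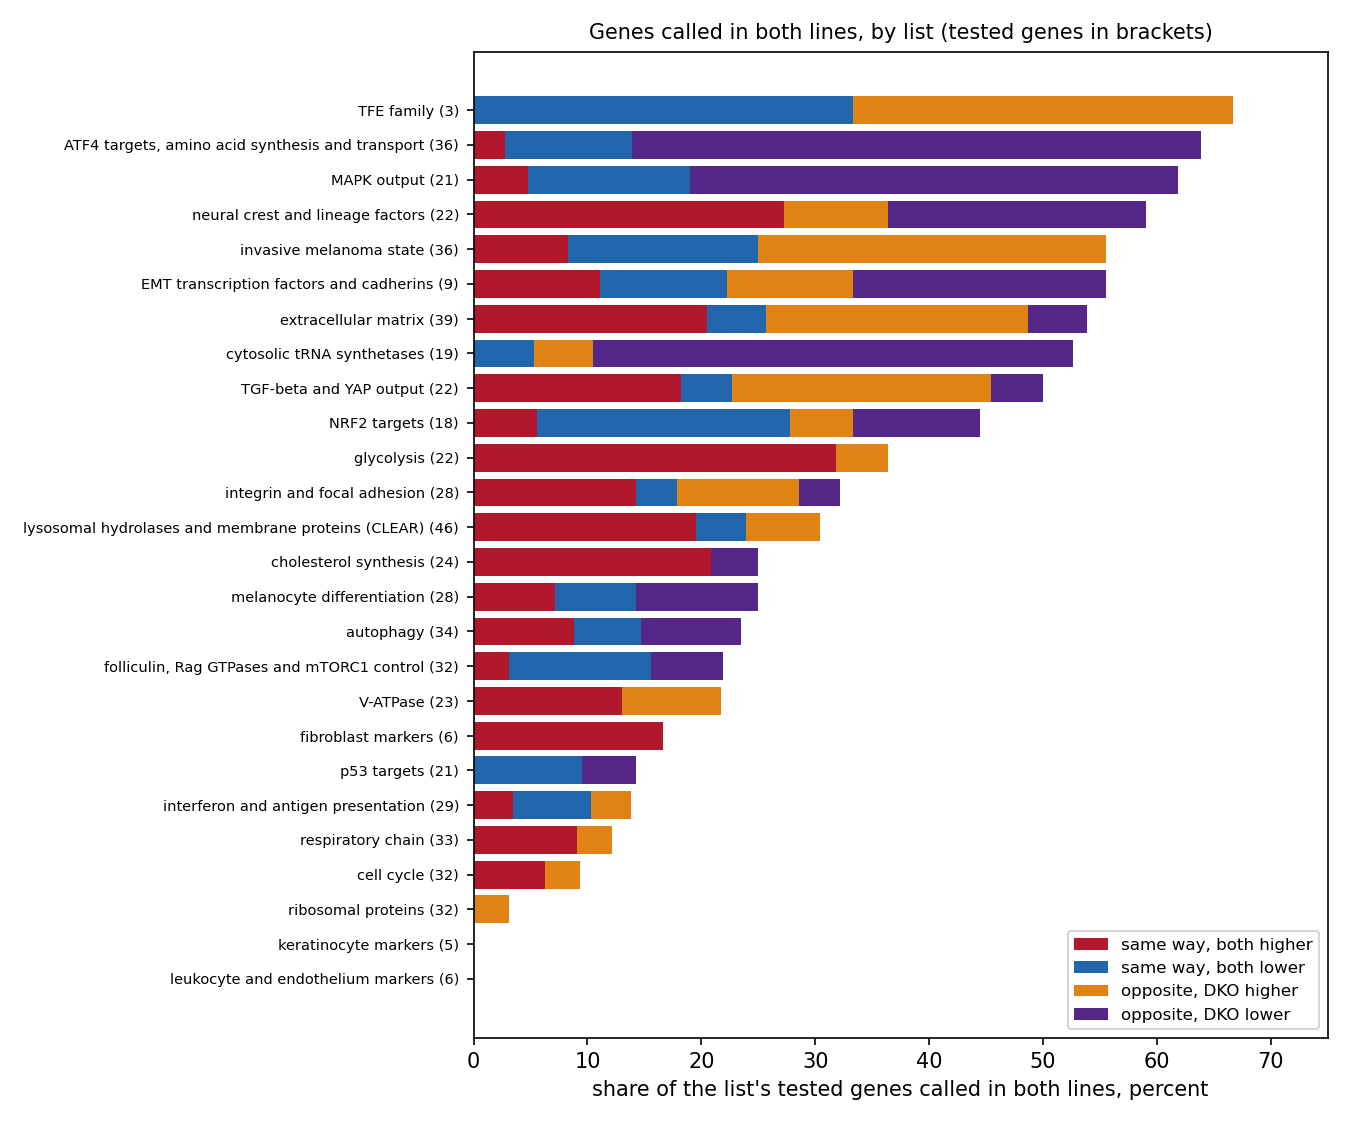
Share of each list's tested genes (percent; number tested in brackets) that were called in both lines, split into same-way rises, same-way falls and the 2 opposite patterns. In the ATF4 list, MAPK output and the tRNA synthetases the longest segment is the one lower in DKO and higher in A375, and in the invasive list the one higher in DKO and lower in A375.

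Another 2335 genes were called in the DKO mean and the interaction but not in A375, and 1433 in A375 and the interaction but not in the DKO mean. Of the genes named for the DKO clones, AKNA, an AT-hook factor, was at 36.8 ± 1.9 CPM in MITFKO, 9.98 ± 2.37 and 7.4 ± 2.07 in the clones, and 9.17 ± 1.08 and 9.21 ± 0.848 in A375. OSBPL10, an oxysterol-binding protein, rose 3.84-fold to 5.92 ± 0.572 and 4.76 ± 1.23 CPM, while A375 stood at 105 ± 3.14 and 106 ± 1.87. LOXL2, a collagen cross-linking oxidase, rose from 106 ± 1.74 to 196 ± 13.9 and 518 ± 158 CPM, with a DKO change of 1.46 without clone 13 replicate 2 against 1.58. DDX41, an RNA helicase, was at 115, 101 and 115 CPM in MITFKO, 236, 405 and 227 in clone 3 and 323, 754 and 302 in clone 13, with replicate 2 the highest in both clones. The DKO change of DDX41 was 1.73 with clone 13 replicate 2 and 1.46 without it. DOK3, an adaptor of immune receptors, had the same pattern, with 2.16 and 1.85. VAMP8, a SNARE protein, was at 13.6 ± 0.818 CPM in MITFKO, 10.7 ± 1.62 in clone 3 but 0.74 ± 0.264 in clone 13, so its call rests on clone 13. ZNF320, a zinc finger gene with close relatives, was at 6.3 ± 1.25, 2.86 ± 0.584 and 0.27 ± 0.236 CPM in the same order.

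In A375 only, FOXP1, a forkhead factor, went from 18.8, 19.5 and 18.5 CPM to 3 counts in 3 libraries, a ratio of 464 with a 95% counting interval of 158 to 2251, while the SKMEL28 groups stood at 12.6 ± 1.12, 12.1 ± 0.747 and 11.3 ± 2.67 CPM. ITGA9, an integrin chain, rose from 0.413, 0.698 and 0.985 CPM to 8.25, 8.03 and 6.84. MYO10, the filopodial myosin, fell from 140 ± 2.62 to 19.5 ± 2.56 CPM and stood between 129 and 172 CPM in every SKMEL28 library. TLN2, a talin, fell 3.5-fold, and PGF, placental growth factor and a ligand of FLT1, fell 3.69-fold. ZNF536, CACNA1D, a calcium channel subunit, and FCGR2A, an Fc receptor, rose 10-fold, 6.78-fold and 5.77-fold from below 2 CPM. The A375 TFE3KO line is 1 edited line, so a change of 1 gene there cannot be told apart from a change particular to that clone.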

How the data were processed

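RNA-seq gene counts of 15 libraries were used, 3 per group. Per the submitters' processing notes, STAR, featureCounts and DESeq2 were used upstream with genome build hg19; no version or strand setting is stated there. The authors deposited raw counts per gene, 1 file of counts per library, with 17320855 to 31269126 assigned counts. Genes were filtered by edgeR's filterByExpr over the 5 groups, scaled by TMM and tested with edgeR 4.0.16 (robust quasi-likelihood F-test, R 4.3.3, Benjamini-Hochberg over the 15093 genes tested, threshold 0.05). CPM are TMM-scaled. The steps were tested on simulated data with 200 changed genes. DESeq2 1.42.0 was an alternative.

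Members and gene lists were chosen with earlier results of these data known. The rule named the MiT/TFE family, the 6 same-way and 6 opposite genes per direction with the largest smaller change (at least 5 CPM in the higher group of each line, no overlap of libraries), 4 per direction called in 1 line, and in each of 26 lists the 2 largest interactions and 2 same-way changes. Another 42 genes were chosen after their values were seen. A few genes that the rule or lists hold are not reported here. Counts of list members called are read against the percentages of all genes given with each comparison. Replicate numbers were not treated as pairs. Deviations of same-numbered cultures of a line correlated at -0.0655 to 0.264. The highest value was that of replicate 2 of clone 3 with replicate 2 of clone 13. Each of them correlated with replicates 1 and 3 of the other clone at -0.193 to -0.125. Replicate 2 thus deviated together in both clones, and the cause was not tested.

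Promoters (250 bases before the start) came from RefSeq, GRCh38.p14, matched by symbol. For the 15093 tested genes 11738 promoters were found, and genes without one were not searched. Of the 28278 gene symbols with counts, 27633 matched a RefSeq gene by symbol or synonym, which is not a count of promoters. Counting intervals are exact at 95% and cover counting error only.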

Additional observations from a re-analysis of the deposited data

Results flagged for a closer look

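Opposite genes mentioned above only as members of a list, such as TGFBR1 and FARSA, are not counted here. Of the other genes named above, 47 were called in opposite directions in the 2 lines with a called interaction (edgeR, adjusted p below 0.05). Each is given with its log2 interaction. These are 21 genes that were higher in the mean of the DKO clones and lower in A375 TFE3KO and 26 that were lower in that mean and higher in A375. For NPC2, FN1 and SPRY1 clone 3 alone was not called, and for SNAI2, SLIT2 and SPRY4 clone 13 alone was not called. Among the former, the interaction was positive for MITF 1.68, GALNT18 2.70, CCN1 3.15, TMEM132A 2.77, P3H2 2.18, COL5A1 3.33 and PODXL 2.03. Positive values were also found for GLA 0.81, AXL 4.70, SLIT2 3.94, LAMA1 6.99, CXCL8 3.41, TGFBI 1.95 and THBS1 1.54. The remaining genes of this kind were CAV1 1.30, FN1 2.05, TGFBR2 1.69, LGMN 0.70, NPC2 0.55, PFKP 0.81 and FLNA 0.78.

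Negative interactions were found for RASD2 -5.11, PELI2 -3.14, ALDH1L2 -3.48, JDP2 -3.22, MUC5B -2.76, SLC7A11 -2.33, DDIT4 -2.00, OCA2 -2.43 and SNAI2 -2.25. The same direction was found for ADM2 -4.59, GARS1 -1.29, WARS1 -1.26, TP53INP1 -1.27, SPRY4 -2.44, SPRY1 -1.84, ATF4 -1.18 and PHGDH -1.49. The last of these were ASNS -3.42, CHAC1 -2.75, SESN2 -1.62, DUSP6 -1.12, EGR1 -1.41, WWTR1 -1.21, COL4A2 -3.74, LEF1 -1.43 and PAX3 -0.83. The genes were named in part because they differ between the lines, so their number is a description.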

How the results depend on the processing

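Of the values of single genes recomputed under the alternatives, 12045 kept their side of the threshold, 239 lost a call, 79 gained one and 6 reversed. Direction was compared only for values called in the main fit, so the 6 are reversals of called values. Values not called in the main fit could change sign and still count as kept. The reversals were NPC2 in the DKO mean (-0.02), PMEPA1 (-0.02), ITGA6 (0.02) and VIM (-0.05) in the interaction, all with clone 3 alone, STC2 in the interaction with replicate 2 of both clones left out (-0.69), and TWIST2 in the DKO mean, which ranged from -4.15 to 0 with 1 library left out (0 without MITFKO replicate 2). TWIST2 and STC2 have almost no SKMEL28 counts, so their fitted values are no measure of size. Requiring a call in each clone left 454 and 332 same-way genes, 330 and 343 opposite genes, and 1847 higher and 1717 lower in the DKO clones. Requiring 0.5 log2 units left 1290 higher and 1936 lower for the interaction, 176 and 151 same-way, 96 and 157 opposite, 904 and 1306 for the DKO mean, and 1374 and 1049 for A375. With 1 library left out, the interaction ranged from 2466 to 3159 higher and 2628 to 3121 lower, same-way genes from 635 to 922 and 525 to 729, and opposite genes from 445 to 769 and 495 to 651. The DKO mean ranged from 2697 to 3529 higher and 2671 to 3260 lower, and A375 from 2040 to 2820 and 1949 to 2832. The cause was not tested. With RLE factors the DKO mean was called higher for 3451 and lower for 2999, and with DESeq2 for 3553 and 3063. In 8 of 24 checks a culture correlated best with its own number, and replicate 2 of the 2 clones deviated together (0.264). With a replicate block within each line the interaction was called for 2818 and 2906 genes, same-way 791 and 660, opposite 601 and 593. With replicate 2 of both clones left out, an alternative chosen after seeing the data, the interaction was called for 3250 and 3176 genes.

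Other list counts also moved by over 1.5 times without 1 library. Without clone 13 replicate 2, V-ATPase genes higher in DKO and lower in A375 went from 2 to 4, cell cycle genes of that kind from 1 to 5, rises in both lines from 3 to 5 for the respiratory chain and from 2 to 6 for the cell cycle, and falls in both from 2 to 4 for matrix and for autophagy. Lysosomal genes with a lower interaction went from 2 to 5 without it. Without replicate 1 of wild-type A375, V-ATPase rises in both went from 3 to 1, as did respiratory chain rises. Without replicate 3 of wild-type A375, autophagy genes lower in DKO and higher in A375 went from 3 to 1, and without replicate 3 of TFE3KO folliculin and Rag genes with a higher interaction went from 7 to 4. Without replicate 2 or 3 of MITFKO, NRF2 targets lower in both went from 4 to 2. Low counts limit the genes given as counts.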
